A study of Mus musculus with 6 samples.

Results

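The surface markers of activation and memory described here were 10 genes of mouse CD8+ T cells, *Cd44*, *Cd69*, *Cd5*, *Cd6*, *Ly6a*, *Ly6c2*, *Spn*, *Cd38*, *Cd48* and *Slamf1*, chosen by gene name from the 54446 genes in the files. RNA was measured in 6 libraries. The unstimulated group (2 libraries) was fresh CD8+ T cells, the control group (2 libraries) was CD8+ T cells stimulated for 72 h without magnets, on plates coated with antibodies to CD3 and CD28, and the SMF group (2 libraries) was stimulated in the same way on permanent magnets that gave a static magnetic field (SMF) of 0.3 T. In every group the cells came from spleens of wild-type C57BL/6 mice aged 8 weeks and were purified by negative selection with a kit, which can leave some cells of other types. How many mice gave a library, and whether the libraries came from separate cultures, is not given in the sources used here, so that p-values measure the spread between these libraries, which may be technical.

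Naive T cells carry little CD44, and after the T cell receptor and CD28 are engaged the surface of the cell is rebuilt within days: adhesion receptors for tissue matrix rise, homing receptors for lymph nodes are lost, and receptors that damp the antigen signal are adjusted. CD69 is an early marker of this response, whereas CD44, Ly-6C and Sca-1 are used to tell memory CD8+ T cells from naive ones. CD5 and CD6 sit beside the T cell receptor and tune its signal, CD43 (encoded by *Spn*) is a large sialoglycoprotein, CD38 is an enzyme that consumes extracellular NAD+, and CD48 and SLAM (encoded by *Slamf1*) belong to a family of receptors that bind each other between lymphocytes.

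Levels are given as FPKM (fragments scaled for transcript length and library depth), summed over the annotated transcripts of a gene, and so allow for length when genes are compared. The covered bases of a library ranged from 64.4 Mb to 259 Mb, with the SMF libraries deepest. The test took the 14991 genes whose mean reached 1 FPKM, with 10 of the 10 markers among them. A gene is called here when log2(FPKM + 1) differed by a fold of 2 or more and the unadjusted limma p was at most 0.05. Folds on this scale understate the change of low genes. The folder dates in the file headers were June 2017 for replicate 1 and November 2017 for replicate 2 of the unstimulated and control groups, and October 2018 for both SMF libraries, so that folder date and magnetic field cannot be told apart. Protein-coding genes took 49.1% to 50.5% of summed FPKM in the unstimulated and control libraries and 68.7% to 69.2% in the SMF libraries.

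Markers of CD8+ T cells were present in every library, with a summed level of 783 to 898 FPKM in unstimulated, 484 to 634 FPKM in control and 918 to 957 FPKM in SMF libraries for 8 of 8 genes. Markers of B, myeloid and NK cells summed to more in both unstimulated libraries than in any stimulated one. The 8 B cell markers summed to 125 to 176 FPKM in unstimulated, 8.46 to 23.3 FPKM in control and 2.71 to 4.85 FPKM in SMF libraries, with 0 of the 8 listed at 0 in both unstimulated, 3 in both control and 5 in both SMF libraries. Myeloid markers (8 of 10 analysed here) summed to 147 to 174, 47.0 to 53.8 and 47.5 to 51.4 FPKM, with *Lyz2* at 42.5 and 74.0 FPKM in unstimulated libraries and at 0 in the 4 others. In stimulated cells most of that sum was *Csf1r* (47.0 and 53.8 FPKM in control, 41.1 and 50.4 FPKM in SMF), with 7 of the 8 markers at 0 in both control and 5 in both SMF libraries. NK cell markers (5 genes) summed to 58.6 to 118, 5.73 to 28.6 and 2.97 to 5.26 FPKM, CD4 T cell markers (4 genes) to 14.5 to 31.2, 12.8 to 22.8 and 12.8 to 13.5 FPKM, which overlapped between unstimulated and control cells and was mostly *Foxp3* in the stimulated ones (11.9 and 19.3, 11.9 and 11.8 FPKM), and erythroid and platelet markers (2 of 8 analysed here) to 18.3 to 19.1, 5.21 to 7.16 and 1.51 to 10.1 FPKM. The 1 endothelial and stromal marker analysed here, *Pecam1*, was highest in control cells, at 17.7 to 54.2, 144 to 199 and 21.6 to 54.1 FPKM. Of the tested genes, 6 of 6 B cell markers were called lower in control and in SMF against unstimulated cells, as were 6 and 5 of 8 myeloid, 2 and 3 of 4 NK cell, 1 and 2 of 4 CD4 T cell and 0 and 1 of 1 erythroid and platelet markers. Of all genes tested, 12.6% and 14.8% were called lower in these comparisons. Lists of 4 genes or 1 say little beside such shares. The part of these other cells in the differences from unstimulated cells was not tested. In bulk RNA, fewer cells of a type and less RNA per cell cannot be told apart.

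The RNA of CD44, CD5, CD6 and Sca-1 (*Ly6a*) was higher, and that of CD38 lower, in control than in unstimulated cells, with the *Ly6a* call lost in 14 of 18 alternatives. These groups also differ by 72 h of culture and by the levels of other cells' markers given above, which cannot be told apart from stimulation. Of the 10 markers, 4 were called higher and 1 lower in control than in unstimulated cells, beside 12.3% of all tested genes called higher and 12.6% called lower. The median log2 fold change was 0.77 over the markers and -0.046 over all genes tested. At a limma adjusted p under 0.05 the markers called were *Cd44* and *Cd6*, 2 of 10, beside 8.48% of all genes.

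In SMF compared with unstimulated cells, 6 markers were called higher (*Cd44*, *Cd5*, *Cd6*, *Ly6a*, *Spn* and *Slamf1*) and 1 lower (*Cd38*), beside 22.4% and 14.8% of all genes. At a limma adjusted p under 0.05 there were 5 of 10 (*Cd44*, *Cd5*, *Cd6*, *Slamf1* and *Cd38*), beside 23.6% of all genes. The median was 1.65 over the markers and 0.27 over all genes. With 1 sum for protein-coding genes in every library, 43.7% of the called genes were higher in place of 60.1%, and 5 markers were called.

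Between the SMF and control cells, both stimulated, *Cd44*, *Cd5* and *Slamf1* were called higher and *Cd38* lower. These are 3 and 1 of the 10 markers, beside 12.5% of all genes called higher and 5.72% called lower. The median was 0.52 over the markers and 0.32 over all genes. No marker reached an adjusted p under 0.05 by limma (0 of 10, with the lowest at 0.136), and 4 of all genes did (0.0267%). At an unadjusted limma p of at most 0.05 there were 5 of the 10 markers, the 4 called and *Cd69*, beside 3159 of the 14991 genes tested. Because the median gene was higher in SMF by 0.32, differences are also given relative to it. After scaling every library to 1 median, 37.8% of the called genes were higher in place of 68.6%, and with 1 protein-coding sum 41.4% were, and 3 markers were called under each, *Cd44* no longer being one.

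**Figure D1:**
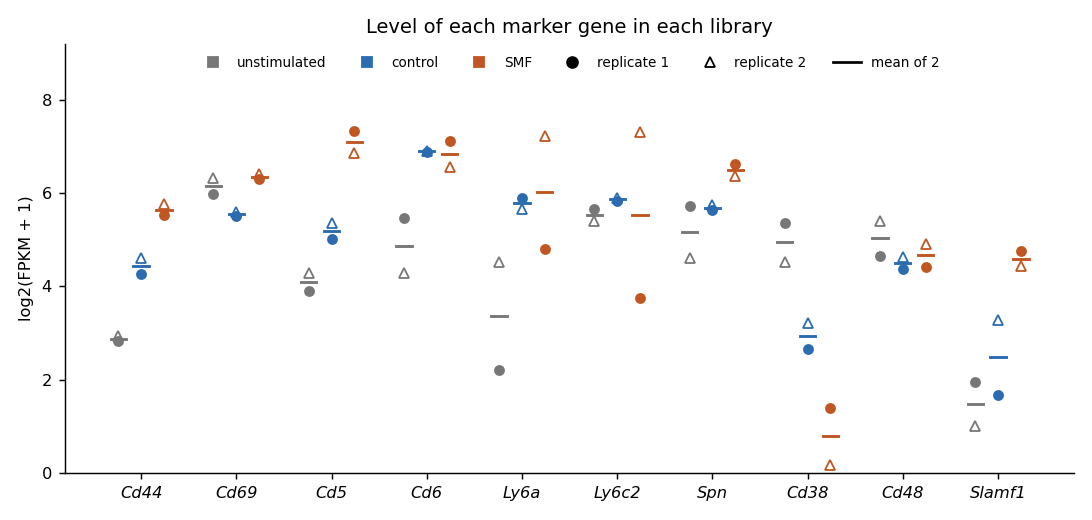
Level of each marker gene, as log2(FPKM + 1), in each of the 6 libraries. Circles are replicate 1, open triangles replicate 2 and short bars the mean of 2 libraries, in grey for unstimulated, blue for control and orange for SMF. *Cd44* and *Cd5* step up from group to group, *Cd38* steps down, and the SMF libraries lie far apart for *Ly6a* and *Ly6c2*.

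The order of the levels changed between groups. In unstimulated cells *Cd69* was highest, at a mean of 70.7 FPKM, with both libraries above those of any other marker. *Ly6c2* (45.8), *Spn* (37.5), *Cd48* (32.7), *Cd38* (31.1) and *Cd6* (30.8 FPKM) followed with overlapping libraries. Then came *Cd5* (16.3) and *Ly6a* (12.7 FPKM), which overlapped with each other and with *Cd6*. *Cd44* (6.36 FPKM, within the range of *Ly6a*) and *Slamf1* (1.92 FPKM) were lowest. In control cells *Cd6* led at 119 FPKM, *Ly6c2* (57.5), *Ly6a* (54.1) and *Spn* (50.7 FPKM) overlapped as neighbours, and *Cd69* (46.0) and *Cd5* (35.7 FPKM) came after, each clear of the next. *Cd48* (21.8) overlapped with *Cd44* (20.8 FPKM), as did *Cd38* (6.76) with *Slamf1* (5.48 FPKM). In SMF cells *Cd5* had the highest mean, at 137 FPKM, although *Ly6c2* and *Ly6a* were above it in SMF replicate 2. Next to it was *Cd6* at 116 FPKM, whose libraries overlapped with those of *Cd5* and of *Spn*. *Spn* (89.7), *Ly6a* (88.1), *Ly6c2* (85.4) and *Cd69* (80.8 FPKM) were not separable, *Cd44* stood at 49.2 FPKM, within the wide ranges of *Ly6a* and *Ly6c2*, *Cd48* (24.8) and *Slamf1* (23.3) overlapped, and *Cd38* was lowest at 0.882 FPKM.

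**Figure D2:**
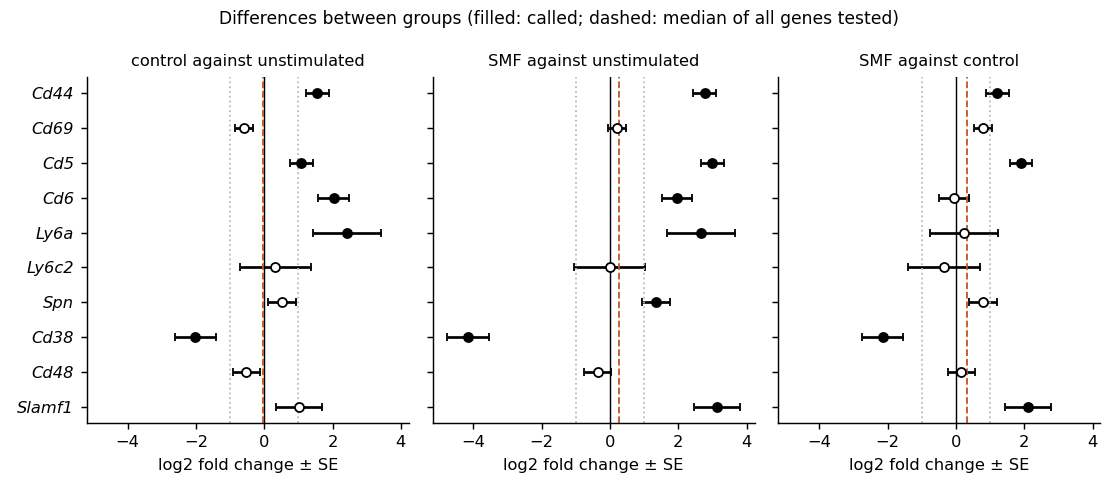
Log2 fold change on the log2(FPKM + 1) scale with its standard error from limma, for the 10 markers in the 3 comparisons. Filled points are called (fold of at least 2, unadjusted p of at most 0.05), dotted lines mark a fold of 2 and the dashed line is the median of all genes tested. *Cd44* and *Cd5* are called higher and *Cd38* lower in each panel, and *Ly6a* and *Ly6c2* have the widest errors.

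The adhesion receptor gene *Cd44* (ENSMUSG00000005087.17, minus strand, chr2:102811141-102901665 on GRCm38) was at 6.11 and 6.62 FPKM in the unstimulated libraries, 18.3 and 23.4 FPKM in the control libraries and 44.98 and 53.5 FPKM in the SMF libraries. No group overlapped another. The group means were 6.36 ± 0.359, 20.8 ± 3.65 and 49.2 ± 6.0 FPKM (SD, n = 2 each). The log2 fold change was 1.56 ± 0.34 (SE) for control against unstimulated (limma, adjusted p = 0.0434) and 2.77 ± 0.34 for SMF against unstimulated (adjusted p = 0.0059). For control against unstimulated the replicate number follows the folder date, and with it as a block the limma adjusted p was 0.0613, within a range of 0.0327 to 0.186 over all alternatives; the call by fold and unadjusted p was kept in the 18 alternatives. For SMF against control the log2 fold change was 1.21 ± 0.34 (limma, adjusted p = 0.167), or 0.89 above the median gene. That call was lost when every library was scaled to 1 median (0.86) or 1 protein-coding sum (0.88), without SMF replicate 2 (1.08), and with covered bases per length of exon in place of FPKM (0.68).

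CD44 protein exists in a standard form and in longer forms that include variable exons. The annotated 9-exon form joins exon 5 directly to the constant exon that follows, and the 19-exon form inserts 10 variable exons there. The 2 junctions are shown because they are what separates the forms, with exon 5 in lower case (chr2:102853015-102853056) and the next exon in capitals (chr2:102828569-102828610 in the 9-exon form and chr2:102848741-102848782 in the 19-exon form), read on the minus strand of GRCm38 from GENCODE M21.
Cd44 9-exon form: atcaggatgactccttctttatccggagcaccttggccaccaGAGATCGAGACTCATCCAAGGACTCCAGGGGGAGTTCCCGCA
Cd44 19-exon form: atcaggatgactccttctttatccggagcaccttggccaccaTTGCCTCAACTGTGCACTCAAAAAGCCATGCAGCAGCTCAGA

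Coverage of the variable exons was low next to that of the constant exons. Scaled to 100 Mb of covered bases, the mean coverage per base of the 10 variable exons was 0 in both unstimulated libraries and control replicate 1, 0.12 in control replicate 2, 0.948 in SMF replicate 1 and 0.002 in SMF replicate 2. Constant exons 2 to 5 were at 0 and 1.39 in unstimulated, 2.99 and 2.25 in control and 7.74 and 4.71 in SMF libraries. Most of the coverage of the variable exons came from SMF replicate 1, and no difference between groups can be read from it. The last exon was at 1.44 and 0.885, 3.62 and 2.10, and 3.34 and 4.98, so that for this exon SMF replicate 1 lay between the control libraries. The assignment to forms differed between replicates as well. The 9-exon form was at 0 FPKM in unstimulated cells and control replicate 1, 17.5 FPKM in control replicate 2 and 31.6 and 47.2 FPKM in SMF cells. The 19-exon form was at 6.11 and 4.84 FPKM in unstimulated, 18.3 and 4.42 FPKM in control and 9.12 and 4.34 FPKM in SMF libraries. In both unstimulated libraries and control replicate 1 it thus had FPKM while its 10 variable exons were at 0. Its FPKM therefore does not show that variable exons were present. The 19-exon form has 5614 bases and the 9-exon form 2848, so the split also enters the summed FPKM, which is scaled for length. With covered bases per length of exon in place of FPKM, control against unstimulated gave 1.28 (1.56 with FPKM). In SMF against control cells that value was 0.68 (1.21 with FPKM). The control libraries held 64.4 Mb and 172 Mb of covered bases, and the part of depth in the split was not tested.

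**Figure D3:**
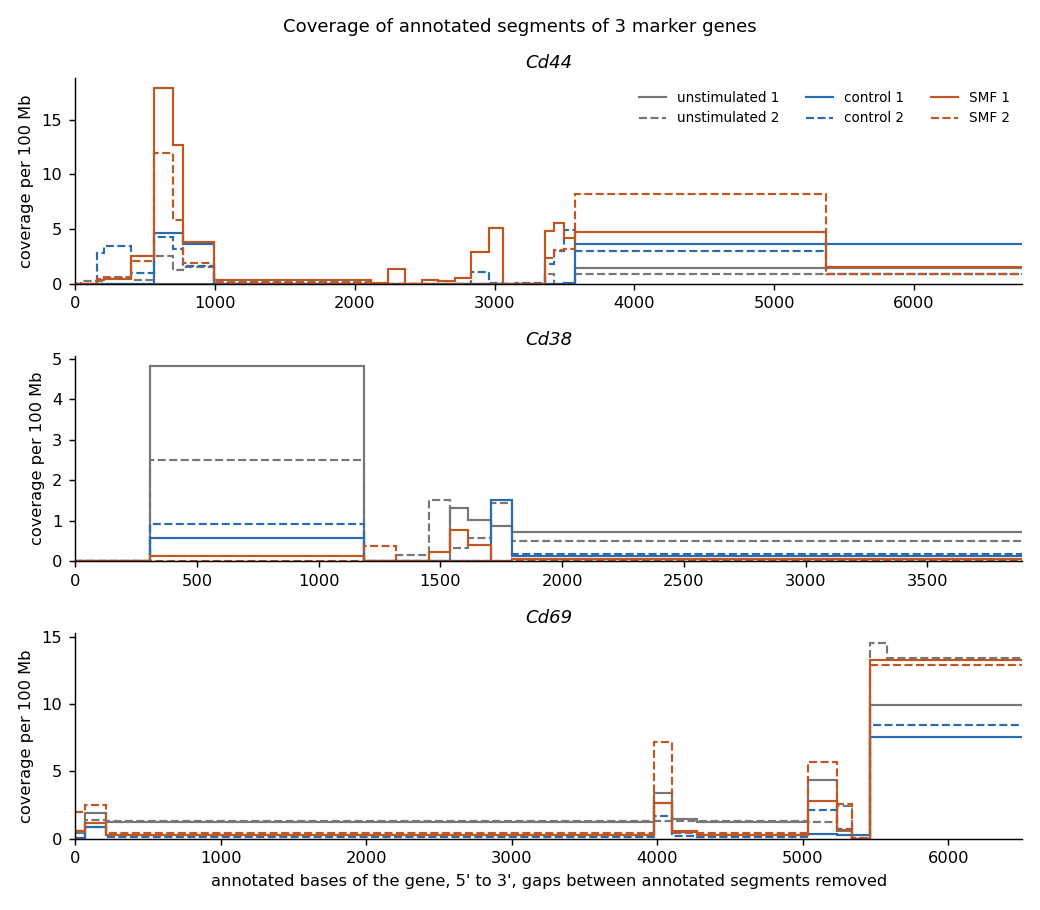
Coverage per base, scaled to 100 Mb of covered bases in a library, along the annotated segments of *Cd44*, *Cd38* and *Cd69* from the 5′ to the 3′ end (x axis in bases, with unannotated gaps removed). Lines are the 6 libraries, solid for replicate 1 and dashed for replicate 2. *Cd38* coverage in unstimulated cells is highest over 1 annotated exon of 881 bases that runs from exon 1 into intron 1. *Cd69* coverage is highest over the last exon. Each exon of a transcript has 1 mean value, drawn flat along it.

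*Cd69* (ENSMUSG00000030156.5, minus strand, chr6:129267325-129275436) encodes a C-type lectin that binds the egress receptor S1PR1 and keeps activated lymphocytes in tissue. Its level was 62.1 and 79.4 FPKM in unstimulated, 44.4 and 47.6 FPKM in control and 78.0 and 83.6 FPKM in SMF libraries. Control libraries lay below all the others, and unstimulated and SMF libraries overlapped. Control against unstimulated gave a log2 difference of -0.60 ± 0.27 (limma, adjusted p = 0.216), SMF against unstimulated 0.20 ± 0.27 (adjusted p = 0.611), and SMF against control 0.80 ± 0.27 (adjusted p = 0.188), a fold of 1.74 that was not called, or 0.48 above the median gene. The sign of the SMF against unstimulated difference turned negative with 1 median (-0.054), 1 protein-coding sum (-0.28) and covered bases per length of exon (-0.17).

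More *Cd69* coverage was assigned to an unspliced transcript in fresh cells than in stimulated ones. This annotated single-exon transcript of 4968 bases runs from exon 1 through intron 1 and beyond. The boundary that splicing would remove is shown with the end of coding exon 1 in capitals and the start of intron 1 in lower case (chr6:129275162-129275263, minus strand, GRCm38).
Cd69 exon 1 and intron 1: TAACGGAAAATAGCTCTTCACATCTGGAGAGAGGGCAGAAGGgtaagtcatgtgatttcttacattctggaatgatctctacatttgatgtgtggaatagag
The single-exon transcript was covered at 1.24 and 1.3 per 100 Mb in unstimulated, 0.292 and 0.164 in control and 0.266 and 0.402 in SMF libraries, with both unstimulated libraries above the 4 stimulated ones. Each value is 1 mean over its 4968 bases, exon parts included. Coverage of intron 1 alone cannot be read from it. The last exon was at 9.89 and 13.5, 7.56 and 8.45, and 13.3 and 12.9 per 100 Mb. The ratio of the single-exon transcript to the last exon was thus larger in fresh cells than in SMF cells although the last exon was at a like level. No test was run on these coverages, which StringTie divided among the annotated transcripts.

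*Spn* (ENSMUSG00000051457.7, minus strand, chr7:127132232-127137823), which encodes CD43, was at 51.6 and 23.4 FPKM in unstimulated, 48.9 and 52.5 FPKM in control and 97.7 and 81.7 FPKM in SMF libraries. Unstimulated and control libraries overlapped, and both SMF libraries lay above the other 4. SMF against unstimulated cells gave a log2 fold change of 1.34 ± 0.41 (limma, adjusted p = 0.0617), which was called. Control against unstimulated gave 0.53 ± 0.41 (limma, adjusted p = 0.45) and SMF against control 0.81 ± 0.41 (adjusted p = 0.314), or 0.49 above the median gene, and neither was called. The call was lost with 1 library fewer: without unstimulated replicate 2 the value was 0.78, without SMF replicate 1 it was 1.21 and without SMF replicate 2 it was 1.46, none of them called, and it was also not called with 1 protein-coding sum (0.86). For control against unstimulated, the value was 1.09 and called without unstimulated replicate 1, and -0.025 without unstimulated replicate 2. The transcript to which reads were assigned differed in unstimulated replicate 2, where a transcript annotated for nonsense-mediated decay took 23.4 FPKM and the 2-exon coding transcript was at 0, against 51.6 FPKM for the coding transcript in unstimulated replicate 1.

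*Cd5* (ENSMUSG00000024669.7, minus strand, chr19:10718143-10738974) encodes a scavenger receptor cysteine-rich protein that dampens T cell receptor signals. Its 1 annotated transcript was at 14.0 and 18.6 FPKM in unstimulated, 31.5 and 39.8 FPKM in control and 159 and 115 FPKM in SMF libraries. Each group lay above the one before it without overlap. Group means were 16.3 ± 3.27, 35.7 ± 5.85 and 137 ± 31.3 FPKM (SD, n = 2 each).

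The log2 fold change of *Cd5* was 1.09 ± 0.33 for control against unstimulated (limma, adjusted p = 0.0952), 2.995 ± 0.33 for SMF against unstimulated (adjusted p = 0.00456) and 1.91 ± 0.33 for SMF against control (adjusted p = 0.136), or 1.59 above the median gene. The last is a fold of 3.75 and was called in each of the 18 alternatives, with values of 1.56 to 2.14. The control against unstimulated call was lost with TPM (0.97), 1 protein-coding sum (0.95), without unstimulated replicate 1 (0.90) and without control replicate 2 (0.93).

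*Cd6* (ENSMUSG00000024670.16, minus strand, chr19:10789341-10830058), the neighbour of *Cd5*, encodes a related receptor that binds ALCAM on other cells. It was at 43.2 and 18.4 FPKM in unstimulated, 118 and 119 FPKM in control and 138 and 93.5 FPKM in SMF libraries. All stimulated libraries lay above the unstimulated ones, and the SMF libraries lay on either side of the control libraries. Control against unstimulated gave a log2 fold change of 2.03 ± 0.44 (limma, adjusted p = 0.0445) and SMF against unstimulated one of 1.97 ± 0.44 (adjusted p = 0.0267), both called by fold and unadjusted p in the 18 alternatives. For control against unstimulated the limma adjusted p ranged from 0.0279 to 0.187 over them and was above 0.05 in 12. SMF against control was -0.061 ± 0.44 (adjusted p = 0.978), with library differences from -0.35 to 0.23, and its sign was positive with TPM (0.073), with covered bases per length of exon (0.25) and without SMF replicate 2 (0.22). A 2-exon transcript of 629 bases is annotated as a retained intron. It took 24.7 and 0 FPKM in unstimulated, 61.3 and 36.9 FPKM in control and 43.3 and 25.6 FPKM in SMF libraries. Another such transcript took 49.7 FPKM in control replicate 2 and at most 1.67 FPKM elsewhere. Part of the gene level thus lay outside the coding transcripts. The 12-exon coding transcript was at 16.2 and 0, 0 and 0, and 75.9 and 53.4 FPKM. The 13-exon one was at 1.73 and 18.4, 50.1 and 10.9, and 9.36 and 14.2 FPKM. A 6-exon one was at 0 and 0, 5.54 and 22.0, and 7.70 and 0 FPKM. No test was run on the coding transcripts alone.

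The GPI-anchored markers of the Ly6 cluster on chromosome 15 did not repeat between the SMF libraries. *Ly6a* (ENSMUSG00000075602.10, minus strand, chr15:74994877-74998031), which encodes Sca-1 and is known to respond to interferons, was at 3.63 and 21.9 FPKM in unstimulated, 58.6 and 49.6 FPKM in control and 27.0 and 149 FPKM in SMF libraries. Unstimulated libraries lay below all stimulated ones, and the SMF libraries lay on either side of the control libraries. The ratio between replicates was 6.02 in unstimulated, 1.18 in control and 5.54 in SMF cells.

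The log2 fold change of *Ly6a* was 2.42 ± 0.99 for control against unstimulated (limma, adjusted p = 0.185) and 2.66 ± 0.99 for SMF against unstimulated (adjusted p = 0.101), both called. The first call was lost in 14 of 18 alternatives and the second in 8, with values of 1.26 to 3.57 and 1.44 to 3.87. The first was lost without any 1 of the 6 libraries, and the second without unstimulated replicate 1 (1.503), SMF replicate 2 (1.44) or either control library. SMF against control was 0.24 ± 0.99 (adjusted p = 0.932), 1.45 without SMF replicate 1 and -0.97 without SMF replicate 2, and it was negative with 1 median (-0.10) or 1 protein-coding sum (-0.088).

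*Ly6c2* (ENSMUSG00000022584.14, minus strand, chr15:75108158-75111970), which encodes Ly-6C of memory CD8+ T cells and monocytes, was at 49.9 and 41.6 FPKM in unstimulated, 56.3 and 58.7 FPKM in control and 12.4 and 158 FPKM in SMF libraries. The SMF libraries were the lowest and the highest of the 6. Their ratio was 12.8, and 0.834% of all tested genes had a replicate difference as large on the log2(FPKM + 1) scale in SMF cells, beside 3.62% for *Ly6a*. No comparison was called with all libraries, the log2 fold change being 0.33 ± 1.05 for control against unstimulated, -0.012 ± 1.05 for SMF against unstimulated and -0.34 ± 1.05 for SMF against control (limma, adjusted p = 0.878, 1.0 and 0.894). The last was 1.45 without SMF replicate 1 and -2.13 without SMF replicate 2, and each of these would have been called, in opposite directions. SMF against unstimulated was 1.77 and -1.80 in the same fits. The SE of 1.05 pools the spread of all groups, so the gap between the SMF libraries enters each comparison. For control against unstimulated, whose libraries did not overlap, the SE was 0.23 with only those groups fitted.

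**Figure D4:**
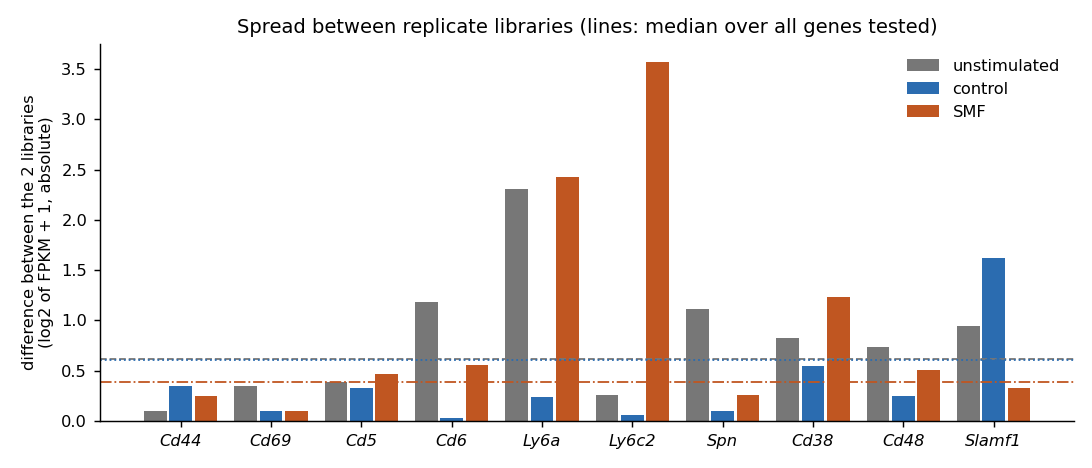
Absolute difference between the 2 libraries of a group, on the log2(FPKM + 1) scale, for each marker in unstimulated (grey), control (blue) and SMF cells (orange). Horizontal lines are the medians over all genes tested, 0.614, 0.611 and 0.391. *Ly6c2* and *Ly6a* have the largest bars, 3.57 and 2.43 in SMF cells.

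Reads of *Ly6c2* can also belong to *Ly6c1*, a nearly identical gene in the same cluster. Over 822 aligned bases of the longest coding transcript of each gene 802 were identical (97.6%). There were 9 differences among 393 coding bases and a longest identical run of 188 bases. A coding stretch of 120 bases in 1 exon with 2 differences, the most in any such window, is shown with the differing bases in capitals (*Ly6c2* at chr15:75108612-75108731 and *Ly6c1* at chr15:75045471-75045590, both on the minus strand of GRCm38, from GENCODE M21).
Ly6c2 coding stretch: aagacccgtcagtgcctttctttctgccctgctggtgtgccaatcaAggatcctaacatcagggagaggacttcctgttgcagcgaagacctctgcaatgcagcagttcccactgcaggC
Ly6c1 coding stretch: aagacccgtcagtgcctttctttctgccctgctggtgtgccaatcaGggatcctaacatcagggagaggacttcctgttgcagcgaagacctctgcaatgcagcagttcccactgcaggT
*Ly6c1* was at 15.0 and 4.80 FPKM in unstimulated, 4.59 and 4.80 FPKM in control and 0 and 6.05 FPKM in SMF libraries. The sum of both genes was 64.9 and 46.4, 60.9 and 63.5, and 12.4 and 164 FPKM, and the gap between the SMF libraries was as wide in the sum as in *Ly6c2*.

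*Cd38* (ENSMUSG00000029084.5, plus strand, chr5:43868553-43912375) encodes the ectoenzyme that consumes NAD+, and in the mouse it is abundant on B cells. It was at 40.04 and 22.2 FPKM in unstimulated, 5.30 and 8.22 FPKM in control and 1.64 and 0.126 FPKM in SMF libraries, each group below the one before it without overlap. Group means were 31.1 ± 12.6, 6.76 ± 2.07 and 0.882 ± 1.07 FPKM (SD, n = 2 each). B cell markers were lower in the same order (summed to 125 to 176, 8.46 to 23.3 and 2.71 to 4.85 FPKM), as were NK cell markers, and their part in the result was not tested.

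The log2 fold change of *Cd38* was -2.02 ± 0.61 for control against unstimulated (limma, adjusted p = 0.095), -4.16 ± 0.61 for SMF against unstimulated (adjusted p = 0.0089) and -2.14 ± 0.61 for SMF against control (adjusted p = 0.167), or -2.46 relative to the median gene. The SMF against unstimulated call was kept in the 18 alternatives. Control against unstimulated was not called with a pseudocount of 0.1 (-2.16), without unstimulated replicate 1 (-1.60) or without control replicate 1 (-1.74). SMF against control was not called without SMF replicate 2 (-1.53) or without control replicate 2 (-1.87), nor with the replicate number as a block and those groups alone. At under 2 FPKM the SMF libraries give little more than that *Cd38* was near the lower end of the tested genes, with 12.9% of them lower.

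Most *Cd38* FPKM lay outside its spliced coding transcript in each library except SMF replicate 2. A single-exon transcript of 881 bases that runs from exon 1 into intron 1 took 36.0 and 18.9 FPKM in unstimulated, 4.38 and 7.29 FPKM in control and 1.09 and 0 FPKM in SMF libraries. The 8-exon coding transcript was at 4.04 and 3.23, 0.915 and 0.935, and 0.544 and 0.126 FPKM, lower in each stimulated library than in the unstimulated ones. The boundary is shown with the end of coding exon 1 in capitals and the start of intron 1 in lower case (chr5:43869079-43869180, plus strand, GRCm38).
Cd38 exon 1 and intron 1: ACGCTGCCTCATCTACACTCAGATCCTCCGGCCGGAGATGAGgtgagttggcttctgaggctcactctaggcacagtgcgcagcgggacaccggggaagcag
Coverage of the 881-base transcript was 4.82 and 2.49 per 100 Mb in unstimulated, 0.571 and 0.921 in control and 0.132 and 0 in SMF libraries. Each value is 1 mean over 261 bases of exon 1 and 620 bases of intron 1. Reads of the exon and of the intron cannot be told apart in it. Exons 2 to 8, which are the spliced part after intron 1, were at 0.655 and 0.514, 0.144 and 0.143, and 0.079 and 0.018. The order of the groups was thus found for the 881-base transcript and for exons 2 to 8. The level was lower in exons 2 to 8 in each library except SMF replicate 2.

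*Cd48* (ENSMUSG00000015355.13, plus strand, chr1:171682009-171705258) encodes a GPI-anchored ligand of CD2 and CD244. It was at 24.3 and 41.1 FPKM in unstimulated, 19.8 and 23.7 FPKM in control and 20.3 and 29.2 FPKM in SMF libraries. Control libraries lay just below the unstimulated ones and overlapped with the SMF libraries. No comparison was called: the log2 fold change was -0.53 ± 0.39 for control against unstimulated, -0.36 ± 0.39 for SMF against unstimulated and 0.16 ± 0.39 for SMF against control (limma, adjusted p = 0.434, 0.527 and 0.852). The last was negative with 1 median (-0.18), with 1 protein-coding sum (-0.16) and without SMF replicate 2 (-0.089).

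*Slamf1* (ENSMUSG00000015316.11, plus strand, chr1:171767127-171801184), close to *Cd48* on chromosome 1, encodes SLAM, a receptor that binds itself on other lymphocytes. It was at 2.85 and 0.995 FPKM in unstimulated, 2.19 and 8.78 FPKM in control and 26.03 and 20.6 FPKM in SMF libraries. Both SMF libraries lay above the other 4, and the unstimulated and control libraries overlapped. A log2 fold change of 3.12 ± 0.68 was found for SMF against unstimulated (limma, adjusted p = 0.0242), with 1.01 ± 0.68 for control against unstimulated (adjusted p = 0.393) and 2.11 ± 0.68 for SMF against control (adjusted p = 0.182), 1.79 above the median gene.

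The SMF against control call of *Slamf1* was lost in 7 of 18 alternatives, which were both fits to those groups alone and the fits without unstimulated replicate 1, unstimulated replicate 2, SMF replicate 1 (1.95), SMF replicate 2 (2.28) or control replicate 1 (1.304). SMF against unstimulated was not called without unstimulated replicate 2 (2.65), and control against unstimulated was called without control replicate 1 (1.82). The control libraries differed 4.01-fold from each other, the shallower library being lower. The unstimulated libraries differed 2.86-fold, the shallower library being higher. The part of depth was not tested.

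Partners of the markers (ligands, receptors and adaptors that bind them, 13 tested of 21) included genes of cell exit and adhesion. In control against unstimulated cells 2 were called higher and 3 lower, beside 12.3% and 12.6% of all genes. *Hmmr*, which encodes another hyaluronan receptor, was listed at 0 in both unstimulated libraries and was at 7.71 and 9.09 FPKM in control and 15.4 and 18.6 FPKM in SMF cells. *S1pr1*, the egress receptor that CD69 binds, fell from 45.6 and 50.7 FPKM to 1.499 and 2.001 FPKM in control and 0.972 and 0.551 FPKM in SMF cells, with log2 fold changes of -4.16 and -4.81 (limma, adjusted p = 0.00964 and 0.0041). *Pecam1*, a ligand of CD38, was at 17.7 and 54.2 FPKM in unstimulated, 199 and 144 FPKM in control and 21.6 and 54.1 FPKM in SMF cells, and was called higher in control against unstimulated (2.41) and lower in SMF against control (-2.27).

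*Icam1*, a ligand of CD43, was called lower in control against unstimulated (-1.55) and higher in SMF against control (1.41), at 14.7 and 13.2, 2.64 and 6.17, and 12.6 and 12.5 FPKM. In SMF against unstimulated cells 3 partners were called higher and 2 lower, beside 22.4% and 14.8% of all genes. Among those higher was *Alcam*, the CD6 ligand, at 2.67 and 0, 2.54 and 16.0, and 38.1 and 27.7 FPKM. *Rdx*, a linker of CD44 and CD43 to actin, was also called higher (1.81). In SMF against control cells 2 were called higher, *Icam1* and *Msn*, another such linker (1.08), and 1 lower, *Pecam1*. The shares of all genes were 12.5% and 5.72%. The median log2 fold change of the partners was -0.28, 0.16 and 0.61 in the 3 comparisons, beside -0.046, 0.27 and 0.32 for all genes.

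Of the paralogs of the markers (12 tested of 23), 5 were called lower and 1 higher in control against unstimulated, beside 12.6% and 12.3% of all genes, and 6 were not called. In SMF against unstimulated 7 were called lower and 1 higher, beside 14.8% and 22.4%. Their median was -1.12 and -1.83, beside -0.046 and 0.27 for all genes. The called genes with the largest changes were *Clec2g*, *Cd163*, *Ly6d* and *Clec2i* in control cells and *Cd163*, *Ly6d*, *Clec2g* and *Ly6e* in SMF cells. Some of these are known from other cells than T cells: *Cd163* is a macrophage scavenger receptor, at 8.90 and 9.04 FPKM in unstimulated libraries and 0 in the 4 others, and *Ly6d* is found on B lineage cells, at 5.78 and 9.87 FPKM and then 0. The paralog called higher was *Slamf7*, at 5.23 and 2.28, 11.8 and 11.5, and 9.59 and 16.3 FPKM; it is named after its values were seen. Between SMF and control cells 0 of the 12 were called, beside 12.5% of all genes called higher and 5.72% called lower. At an unadjusted limma p of at most 0.05 there were 0 of the 12, beside 3159 of the 14991 genes tested.

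Other activation and memory surface markers (27 tested of 30) included genes that were near 0 in unstimulated cells and high in stimulated ones. In control against unstimulated cells 8 were called higher and 6 lower, beside 12.3% and 12.6% of all genes. *Tnfrsf9* (4-1BB) was at 0 and 1.90 FPKM in unstimulated, 158 and 156 FPKM in control and 220 and 193 FPKM in SMF cells, and *Tnfrsf4* (OX40) at 0 and 0, 44.5 and 43.8, and 44.2 and 67.9 FPKM. *Il2ra*, which encodes CD25, was at 0.708 and 0.894, 52.4 and 59.2, and 86.5 and 113 FPKM, with log2 fold changes of 4.98 and 5.80 for control and SMF against unstimulated (limma, adjusted p = 0.0052 and 0.00302). *Cd7* was at 19.6 and 40.1 FPKM in unstimulated libraries and listed at 0 in the 4 others. In SMF against unstimulated cells 13 were called higher and 6 lower, beside 22.4% and 14.8% of all genes. *Tfrc*, the transferrin receptor, was among the largest with 2.32 and 3.01, 82.7 and 106, and 182 and 172 FPKM.

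In SMF against control cells 3 of these 27 were called higher and 0 lower. At an unadjusted limma p of at most 0.05 there were 7 of the 27, beside 3159 of the 14991 genes tested. At an adjusted p under 0.05 there were 0 of the 27, beside 4 of all genes. Those called were the costimulatory receptor *Icos* (1.88, from 9.58 and 11.9 to 36.8 and 48.3 FPKM), the amino acid transporter subunit *Slc3a2* (1.67, from 10.7 and 29.9 to 58.9 and 60.4 FPKM) and the death receptor *Fas* (1.12, from 4.81 and 6.35 to 14.4 and 12.2 FPKM). The share is 3 of 27, beside 12.5% of all genes called higher. The median was 0.39, beside 0.32 for all genes. Of the 8 CD8 T cell markers, *Cd8a* (2.01) and *Cd3d* (1.40) were called higher in SMF against control cells, and *Cd8b1* (-1.31) and *Cd8a* (-1.08) lower in control against unstimulated cells. The shares of all genes called in these directions were 12.5% and 12.6%.

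For each marker the protein-coding gene (mean of at least 5 FPKM, 6922 genes) with the most similar profile over the 6 libraries was found by the root mean square distance of the mean-centred log2(FPKM + 1) values. The distances were smallest for *Spn* with *Polr2m* (0.071), *Cd69* with *Trp53inp1* (0.088) and *Cd44* with *Ybx1* (0.095), then *Cd48* with *Milr1* (0.105), *Cd5* with *Pabpc4* (0.147), *Slamf1* with *Gm4737* (0.163), *Cd6* with *Erlec1* (0.232) and *Ly6c2* with *Ankrd49* (0.251). *Cd38* with *Cog5* (0.409) and *Ly6a* with *Pcbp4* (0.437) had no close match. *Ybx1* was at 75.9 and 74.4, 189 and 234, and 481 and 478 FPKM in unstimulated, control and SMF libraries. Its step up from group to group follows from its choice as the profile nearest to *Cd44*.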

How the data were processed

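RNA was sequenced from 6 libraries of CD8+ T cells made with a stranded total RNA kit. Per the labels' processing notes the authors used Trimmomatic 0.36, HISAT2 and StringTie on mm10. Per the file headers, StringTie 1.3.5 was restricted to the annotated transcripts of GENCODE M19 on GRCm38, and each of the 6 deposited files gives FPKM, TPM and coverage (mean reads per base) for 137767 transcripts. FPKM and TPM were normalized by the authors' StringTie runs for depth and length, and the deposited coverage was not. In a further deposited gene table the 3 value columns fit the labels of no sample, and they were left out.

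Gene FPKM was summed over transcripts. Those averaging 1 FPKM or more (14991 of 54446) were fitted as log2(FPKM + 1) with limma 3.58.1 (R 4.3.3), with the group as the only term, the variance trend, 3 residual degrees of freedom, two-sided tests and Benjamini-Hochberg adjustment over all genes. A call follows the thresholds of the study. Covered bases were coverage times length, and coverages are given per 100 Mb of them. Depth in reads is unknown, so no counting intervals are given. Gene types came from GENCODE M21 (37 unmatched), sequences from GENCODE M21 (8 of 8 transcripts with the exons of the files). Of the 130 distinct exons of the markers, 0 overlapped another gene. The script was tested on simulated data.

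Members, gene lists and tests were chosen with earlier results of these data known. Named in full were the 10 markers; in each list, at most 4 called genes per comparison with the largest change; *Ly6c1*; and the gene with the nearest profile. Replicate numbers follow the folder date for control and unstimulated cells. The correlation of replicate differences across genes was 0.10 between them, 0.03 for SMF with unstimulated and 0.02 for SMF with control cells. A fit with the number as a block, other scalings, filters, pseudocounts, TPM and fits without each library were alternatives, and covered bases per length of exon were added after seeing the data.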

Additional observations from a re-analysis of the deposited data

How the results depend on the processing

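Of 540 marker values under 18 alternatives, 471 kept direction and call, 48 lost the call, 4 gained it and 17 turned sign. In control against unstimulated cells 5 markers were called, 3 with a pseudocount of 0.1, with TPM and with 1 protein-coding sum, and 3 to 4 without 1 library (3123 to 3656 genes). In SMF against unstimulated cells 7 were called, 5 to 7 without 1 library (3905 to 5579 genes). In SMF against control cells 4 were called and 2725 genes, 2 to 4 markers and 1367 to 3379 genes without 1 library. A lone library is assumed to vary like the other groups.

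With the replicate block, 5, 7 and 4 markers were called, as without it. Of the calls by adjusted p, *Cd44* was lost in control against unstimulated (limma, adjusted p = 0.0613) and *Ly6a* gained in SMF against unstimulated cells (limma, adjusted p = 0.0437, with a range of 0.0437 to 0.469 over its alternatives). With the replicate block in the SMF and control groups only, 2 markers and 1763 genes were called. With the block and only the groups compared, no adjusted p of a marker was under 0.05 (limma, 0 of all genes in each comparison): in control against unstimulated *Cd44* had 0.186 and *Cd6* 0.166, and in SMF against unstimulated the lowest was 0.0835. The genes at a limma adjusted p under 0.05, 1271 in control and 3537 in SMF against unstimulated cells, came to 0, markers included, without either control library in the first and without either SMF library in the second. In the first they came to 4 without SMF replicate 1 and 6 without SMF replicate 2. SMF replicate numbers share only a number with the others.

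The cause was not tested for the values that turned sign. In SMF against unstimulated cells *Cd69* was -0.054 with 1 median, -0.28 with 1 protein-coding sum and -0.17 with covered bases. In SMF against control cells *Ly6a* was -0.10 and *Cd48* -0.18 with 1 median, and -0.088 and -0.16 with 1 protein-coding sum, and *Cd6* was 0.073 with TPM and 0.25 with covered bases. Without 1 library, *Spn* ranged from -0.025 to 1.09 in control against unstimulated cells. In SMF against unstimulated cells *Ly6c2* ranged from -1.80 to 1.77 (0.12 without unstimulated replicate 1) and *Cd48* from -0.73 to 0.0039. In SMF against control cells *Ly6c2* ranged from -2.13 to 1.45, *Ly6a* from -0.97 to 1.45, *Cd6* from -0.34 to 0.22 and *Cd48* from -0.089 to 0.41.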
